A study of Mus musculus with 3 samples.

Results

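Cluster 3 is the conjunctival epithelium of the dissected iridocorneal angle and limbus of the mouse eye, as named from 4 marker genes, *Krt13*, *Krt19*, *Krt4* and *Asprv1*. Its members are the cells that the authors kept and gave the cluster label 3, matched by barcode to the count matrix of each library, and they number 390 of 26008 kept cells. Both control libraries came from *Angpt1* flox/flox mice, which carry loxP-flanked *Angpt1* alleles without Cre, and the third library came from *Angpt1* flox/flox;Wnt1Cre+ mice (*Angpt1*ΔNC), in which Wnt1-Cre recombines these alleles in cells of the neural crest lineage. All animals carried the floxed alleles, were of mixed strain after crosses to ICR mice that gave albino litters, and were 6 weeks old. Each library pooled 4 to 6 eyes of 2 to 3 mice of both sexes, so that a library and not a cell is the replicate, and *Angpt1*ΔNC is represented by 1 pool. The lens, retina, posterior sclera, cornea and most of the iris were cut away from the limbus before dissociation, and a large part of the conjunctiva was trimmed off before that, with the amount left in each pool not given.

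The conjunctiva is a stratified mucosal epithelium that continues from the limbus, where the stem cells of the cornea reside, to the inside of the eyelids. Its cells make the mucosal keratin pair KRT4 and KRT13 together with KRT19, whereas the corneal epithelium makes KRT12, and goblet cells between them secrete the gel-forming mucin MUC5AC. This surface epithelium derives from the surface ectoderm and not from the neural crest. ANGPT1 is a secreted ligand of the endothelial receptor TEK (TIE2).

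Cells of cluster 3 were deep, with medians of 21944, 16445 and 20683 unique molecular identifiers (UMIs, counted transcripts) per cell in control replicate 1, control replicate 2 and *Angpt1*ΔNC, and a full range of 1097 to 112188. The median share of mitochondrial UMIs was 2.89%, 3.69% and 4.41% in the same order. *Angpt1* itself had no UMI in cluster 3 in any library, and with 3 cells taken as the limit that a count of 0 allows, the share of cells with a UMI could be up to 3.06%, 3.00% and 1.56%. In the stromal cells labelled TM its level, the mean over cells of UMIs per 10000, was at or above 1.27 in both controls and 0.00724 in *Angpt1*ΔNC. *H2afv*, the gene in which the Wnt1-Cre transgene lies, had 120 and 117 CPM in the controls and 64.5 in *Angpt1*ΔNC (CPM, the UMIs summed over cluster 3 and scaled to a common library total). No barcode was shared between libraries within cluster 3, while 13 to 25 were shared between each pair of libraries over all kept cells. *Xist*, which is transcribed from the inactive X chromosome of females, was found in 97 of 192 cluster 3 cells of *Angpt1*ΔNC and in 0 of 98 and 0 of 100 control cells, although every pool was described as mixed in sex. The part of sex in the comparisons between genotypes was therefore also examined in cells with a Y-linked UMI and no *Xist*, of which there were 88, 86 and 82.

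The 3 keratins among the markers stood higher in cluster 3 than in the other surface epithelia of the same dissection in every library, these being the cycling limbal (cluster 2), limbal (cluster 4) and corneal (cluster 5) epithelium. *Krt13*, the acidic keratin of stratified mucosa, had levels of 9.24 and 6.85 in the controls and 5.69 in *Angpt1*ΔNC, against 0.735 to 2.15 in cluster 2, 0.0629 to 0.148 in cluster 4 and 0.180 to 0.569 in cluster 5. *Krt4*, its basic partner, had 4.16, 3.92 and 5.50, against 1.02 at most in cluster 2 and 0.152 to 0.166 in cluster 4. *Krt19*, an acidic keratin without a fixed partner, had 9.81, 9.52 and 11.1, against 0.850 at most in cluster 2 and 0.171 to 0.218 in cluster 4. These 3 keratins lay within a narrow band across the libraries, and cluster 3 held their highest level among all 35 labels in each library. *Asprv1*, a retroviral-like aspartic protease that processes filaggrin, varied far more, with levels of 71.0 and 1.02 in the controls and 5.31 in *Angpt1*ΔNC, so the knockout lay between controls that were far apart. In control replicate 2 it hardly marked the cluster, with 0.492 in cluster 4.

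The shares of positive cells did not order the libraries as the levels did. A UMI of *Krt13* was found in 67.3%, 52.0% and 63.0% of cluster 3 cells in control replicate 1, control replicate 2 and *Angpt1*ΔNC. In cluster 4, whose median depth was 14480, 12359 and 14092 UMIs, these shares were 7.97%, 6.71% and 7.02%. After each cell was thinned to 5000 UMIs, the *Krt13* shares of cluster 3 were 45.6%, 40.8% and 48.1%, against 3.32%, 4.37% and 2.24% in cluster 4. Either *Krt13* or *Krt4* was found in 74 of 98 cells (75.5%, exact 95% interval 65.8 to 83.6), 69 of 100 cells (69.0%) and 152 of 192 cells (79.2%), and the remaining cells of the cluster carried the label without a UMI of either keratin. All intervals here cover counting error only.

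**Figure D1:**
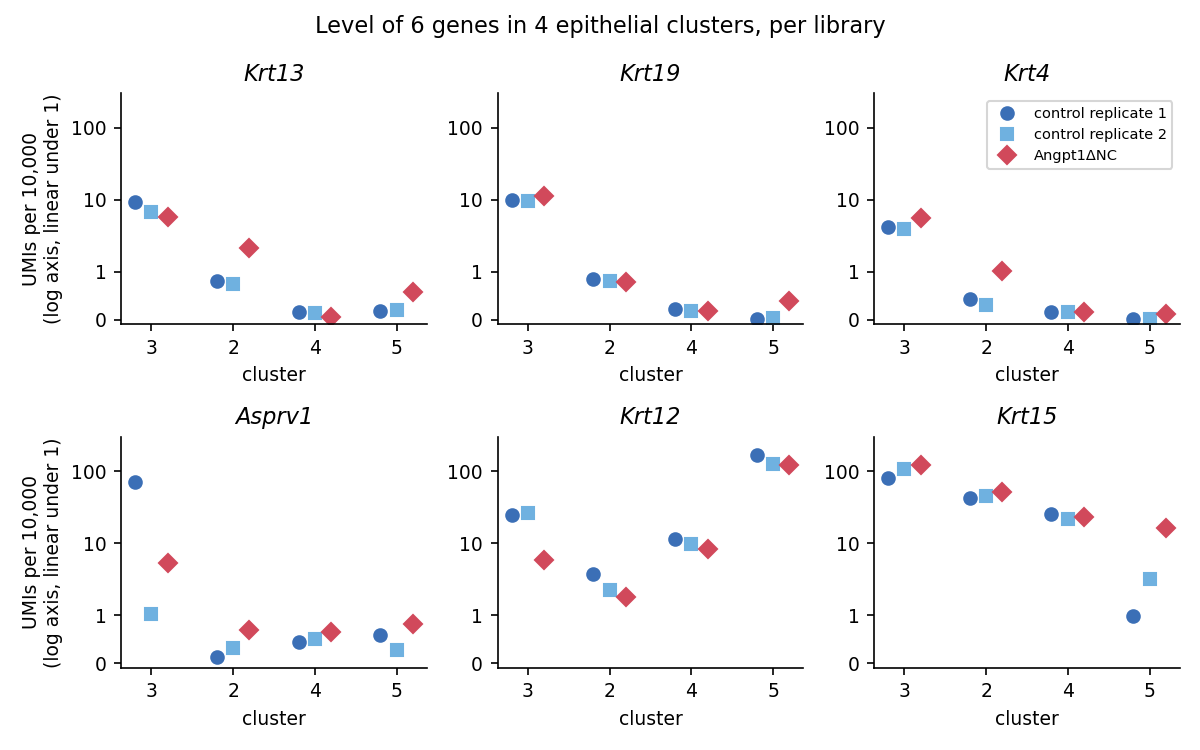
Levels (mean UMIs per 10000, on an axis that is logarithmic above 1 and linear below it) of *Krt13*, *Krt19*, *Krt4*, *Asprv1*, *Krt12* and *Krt15* in clusters 3, 2, 4 and 5, with 1 point per library. The 3 mucosal keratins stand highest in cluster 3 in every library, *Krt12* stands highest in cluster 5, and *Asprv1* spreads from 1.02 to 71.0 within cluster 3.

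The genes of the mucosal and the corneal acidic keratin lie on the same chromosome. In the GENCODE annotation of GRCm38 *Krt13* spans chr11:100117327-100121566 and *Krt12* spans chr11:99415666-99422259, both on the minus strand. *Krt19* spans chr11:100140810-100148665, *Krt4* chr15:101918535-101924735 and *Asprv1* chr6:86628164-86629710. The products of *Krt13* and *Krt12* are markers of conjunctival and corneal cells, though the separation here was not clean. In the controls *Krt12* had levels of 25.0 and 26.0 in cluster 3, above 11.4 and 9.89 in limbal cluster 4 and below 168 and 128 in cluster 5. The start regions of both genes are shown as those of markers, and because *Krt12* is the epithelial keratin whose level differed most between the genotypes in cluster 3. Each runs from 250 bases before to 50 bases after the transcript start in RefSeq (GRCm38.p6), at chr11:100121517-100121816 for *Krt13* and chr11:99422210-99422509 for *Krt12*, and is written 5′ to 3′ on the minus strand. Capitals mark matches, on either strand, to TATAAA, the core of the TATA box, and to TGANTCA. The latter allows any base at N and is looser than the AP-1 site TGACTCA that it includes.
Krt13: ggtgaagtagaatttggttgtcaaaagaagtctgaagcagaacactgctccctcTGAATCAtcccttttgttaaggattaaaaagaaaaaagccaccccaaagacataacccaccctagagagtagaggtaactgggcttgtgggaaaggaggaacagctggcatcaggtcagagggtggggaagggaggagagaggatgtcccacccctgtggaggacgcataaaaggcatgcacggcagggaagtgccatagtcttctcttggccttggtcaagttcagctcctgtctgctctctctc
Krt12: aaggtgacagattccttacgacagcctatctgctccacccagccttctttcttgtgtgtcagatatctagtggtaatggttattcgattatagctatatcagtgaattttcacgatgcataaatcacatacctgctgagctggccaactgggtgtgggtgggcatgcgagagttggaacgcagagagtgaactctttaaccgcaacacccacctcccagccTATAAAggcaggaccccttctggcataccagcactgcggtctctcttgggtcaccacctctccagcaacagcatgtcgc
This *Krt13* region held TGANTCA once, as TGAATCA, 196 bases before the start, and no TATAAA. RefSeq gives *Krt13* another start 3′ of it, not shown, whose region held TGANTCA 183 and 34 bases before that start, each time as TGACTCA. The *Krt12* region held TATAAA once, 29 bases before the start, and no TGANTCA. Of all 32851 RefSeq promoter regions of this length, 13.6% held TATAAA and 7.81% held TGANTCA.

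Beyond the marker genes, cluster 3 was described by the genes whose lowest level in its 3 libraries stood farthest above their highest level in any library of clusters 2, 4 and 5. *Krt19* led this order with a fold of 10.1 (0.1 added to each level), followed by *Hopx* with 3.86, *Krt4* and, with 3.27, *Krt6b*. *Hopx* encodes a homeodomain-only protein and had levels of 6.26, 5.15 and 3.61, whereas it stayed at or below 0.861 in the other epithelia. *Krt6b*, a keratin of activated and suprabasal epithelium, had 21.9, 15.8 and 23.4. Its near-identical neighbour *Krt6a* can share reads with it, which makes the split between them uncertain.

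The same order held several membrane and metabolic genes. *Tmprss4*, a transmembrane serine protease, had levels of 1.46, 1.05 and 1.21, and *Slc5a8*, a sodium-coupled monocarboxylate transporter, had 0.661, 0.594 and 0.931. *Upp1*, the uridine phosphorylase, had 2.13, 1.64 and 2.68. *Gsto1*, an omega class glutathione transferase, was found in every cell of the cluster with levels of 76.5, 45.7 and 50.9, against 18.6 at most in the other epithelia. *Ifitm1*, an interferon-induced membrane protein, had 61.5, 43.4 and 45.4. *Cmah*, which makes the sialic acid Neu5Gc, *Blnk*, *Slc6a14*, *Mall*, *Oit1*, *Lgi2* and *Trpm6* completed the order together with *Muc1*, *Elf3*, *Grhl3* and *Krt13*, whose fold was 2.57. Since the clusters were made from these same cells, the folds are descriptions and carry no test.

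Against all other kept cells of the dissection the order changed, with *Asprv1* 110-fold, *Krt19* 80.5-fold, *Krt6b* 65.6-fold, *Krt13* 50.8-fold and *Krt4* 41.5-fold over the mean of the rest. All 4 conjunctival markers were among the top 10 genes of the cluster. The place of *Asprv1* came from the 19 cells led by *Psca* described below, 15 of them in control replicate 1, which had a mean level of 391 against 1.76 in the other cells of the cluster. *Krt15*, a keratin of basal and limbal cells, was also among them at 50.4-fold. *Pglyrp1*, a bactericidal peptidoglycan recognition protein, had levels of 34.7, 8.11 and 16.1, against 3.39 at most in clusters 4 and 5. *Rbp2*, a cellular retinol-binding protein, had 5.60, 7.05 and 6.34, against 2.69 at most there.

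Keratins of several layers were found together. Of 53 keratin genes measured, 19 had a UMI in at least 10% of cluster 3 cells in each library and 17 had none. Among the basal keratins, *Krt15* had levels of 81.1, 108 and 122, against 21.8 to 25.4 in cluster 4 and 0.978 to 16.5 in cluster 5. *Krt14* had 59.8, 72.1 and 53.4, below the 110 to 126 of cluster 4, while *Krt5*, its partner, had 38.9, 35.7 and 35.9, above the 17.5 to 26.4 of cluster 4. The simple keratins *Krt7* and *Krt8* had 4.63, 2.83, 3.36 and 1.78, 5.81, 3.39, and both were lower in cluster 5, at 0.187 and 0.408 at most. *Col17a1*, a hemidesmosomal collagen, had 2.08, 2.55 and 2.04, below the 4.67 to 5.63 of cluster 4. The basal transcription factor gene *Trp63* likewise had 0.686, 0.892 and 0.914 against 1.32 to 1.90.

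Barrier genes stood higher in cluster 3 than in cluster 4. *Cldn7*, a tight junction claudin, had levels of 14.4, 16.6 and 18.4, against 3.07 to 4.87 in cluster 4. *Cldn3* had 1.67, 4.01 and 2.82, against 0.122 to 0.213 in cluster 4 and 0.121 to 0.268 in cluster 5. The summed level of the 17 tight junction genes listed was 60.2, 71.5 and 60.5, and 27.9 in cluster 4 of control replicate 1. *Elf3*, an ETS factor of differentiating epithelium, had 5.20, 3.29 and 4.20, against 1.24 at most in clusters 4 and 5. *Grhl3*, a grainyhead factor of the epithelial barrier, had 0.922, 0.710 and 0.857, against 0.181 at most. *Pax6*, the eye field factor gene, was read in 43.9%, 47.0% and 45.3% of the cells.

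Membrane mucins marked the cluster unevenly, and goblet cell genes were nearly absent. *Muc4*, the membrane mucin of the conjunctival surface, had levels of 4.43, 0.557 and 1.98, against 0.375 at most in clusters 4 and 5. *Muc1* had 1.84, 0.323 and 1.08 and *Muc20* had 0.493, 0.0508 and 0.414, so that control replicate 1 was high and control replicate 2 low in all 3 membrane mucins. *Muc16* was listed at 0 in both controls and had 0.00841 in *Angpt1*ΔNC. *Muc5ac*, the defining goblet mucin, had a UMI in 0 of 98 and 0 of 100 control cells and in 1 of 192 *Angpt1*ΔNC cells. *Spdef*, the goblet regulator, was found in 4.08%, 0% and 1.04% of the cells, while *Agr2*, a disulfide isomerase of secretory cells, was found in 52.0%, 59.0% and 71.9%. Of 8 goblet markers, *Agr2* was therefore the only 1 in at least 10% of the cells of any library, and the summed levels of the 8 were 0.692, 0.655 and 1.31.

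Markers of immune cells were low, while some keratins of hair follicles and gland ducts were high. The 6 markers of hair follicle or gland duct summed to 86.6, 86.7 and 99.5, nearly all of it *Krt17*, with 55.1, 50.6 and 49.0, and *Krt6a*, with 30.4, 34.1 and 47.3. The same list summed to 51.3 to 62.0 in cluster 4 and 34.1 to 41.8 in cluster 5, and *Krt79*, a sebaceous duct keratin, was at or below 0.0162 in cluster 3. The 5 lacrimal acinar markers summed to 12.2, 3.40 and 0.692, mostly *Aqp5*, while *Pip* had 0.0135 in control replicate 1 and 0 in the other libraries. The summed levels of 7 macrophage or dendritic markers were 0.152, 0.678 and 0.463, and *Ptprc*, which every leukocyte makes, was at 0. The 7 T cell markers summed to 0.0129, 0.0337 and 0.00443, and *Cd3d*, *Cd3e* and *Cd3g* were at 0. The 5 stromal markers summed to 0.490 and 0.395 in the controls and to 4.06 in *Angpt1*ΔNC. *Dcn*, decorin of the stromal matrix, gave most of that value, with levels of 0.203, 0.192 and 2.57.

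Within cluster 3 the cells fell into 4 groups, which were made from the counts of these cells and are named here by their leading genes. A group led by *Sprr2f* and *Sprr1a*, cornified envelope precursors, held 34 and 45 control cells and 104 knockout cells. A group led by *Lgals7* and *Wfdc18* held 46, 47 and 79. A small group led by *Psca* and *Lce3a* held 15, 0 and 4, and another led by *Gm42418* and *Gm16136* held 3, 8 and 5 cells with a median of 10850 UMIs.

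Of both large groups, the *Sprr2f* group held more of the mucosal keratins. *Krt13* had levels there of 10.9, 10.1 and 8.37, *Krt19* had 20, 13.0 and 15.9, and *Krt4* had 10.0, 5.49 and 7.59 in control replicate 1, control replicate 2 and *Angpt1*ΔNC. *Krt6b* had 41.6, 30.1 and 37.7 and *Krt15* had 132, 148 and 159. In the *Lgals7* group *Krt13* had 2.11, 0.935 and 0.764 and *Krt4* had 1.07, 0.764 and 1.28, lower than in the *Sprr2f* group in all 3 libraries but still above the 0.0629 to 0.166 of cluster 4. The *Lgals7* group was higher in *Krt14*, with 99.5, 104 and 79.7 against 37.0, 45.1 and 37.5.

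None of the 4 conjunctival markers was among the 10 leading genes of either large group, and all 4 were found in at least 10% of the cells of both. The leading genes of the *Sprr2f* group held *Sprr1a*, a superficial marker, and *Dcn* and *Sparc* of the stromal matrix. Those of the *Lgals7* group held 2 limbal markers, *Gpha2*, a glycoprotein hormone subunit of limbal cells, with levels of 12.6, 19.4 and 10.8, and *Ifitm3*, with 20.1, 22.3 and 19.4. Neither group was given a cell type name of its own. *Lgals7* itself, galectin-7 of stratified epithelium, had 10.3 and 8.52 in the controls and 1.25 in *Angpt1*ΔNC within the group that it leads.

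The *Psca* group consisted of cells with many transcripts of few genes, with a median of 29827 UMIs but 2049 genes, and 0.720% mitochondrial UMIs. *Psca*, a GPI-anchored protein of the Ly6 family, had levels of 493 in the 15 cells of control replicate 1 and 158 in the 4 cells of *Angpt1*ΔNC. *Asprv1* had 444 and 192, *Lypd2*, another Ly6 gene, had 199 and 44.5, and *Krt13* had 27.7 and 17.4. *Muc4* had 21.3 and 31.5, and *Krt14* was nearly absent at 0.179 and 0.412. *Krt4* was found in 1 of the 15 and 1 of the 4 cells, so these cells held *Krt13* largely without its partner. Control replicate 2 had no such cell among 100, with an exact 95% upper limit of 3.62%, against 15.3% (exact 95% interval 8.83 to 24.0) in the other control and 2.08% in the knockout. The differences between libraries in *Asprv1*, *Muc4* and *Muc1* moved with these 19 cells. The 16 cells of the *Gm42418* group held *Krt19* at 20.8, 32.7 and 39.6 and *Krt4* at 5.63, 13.7 and 32.0.

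**Figure D2:**
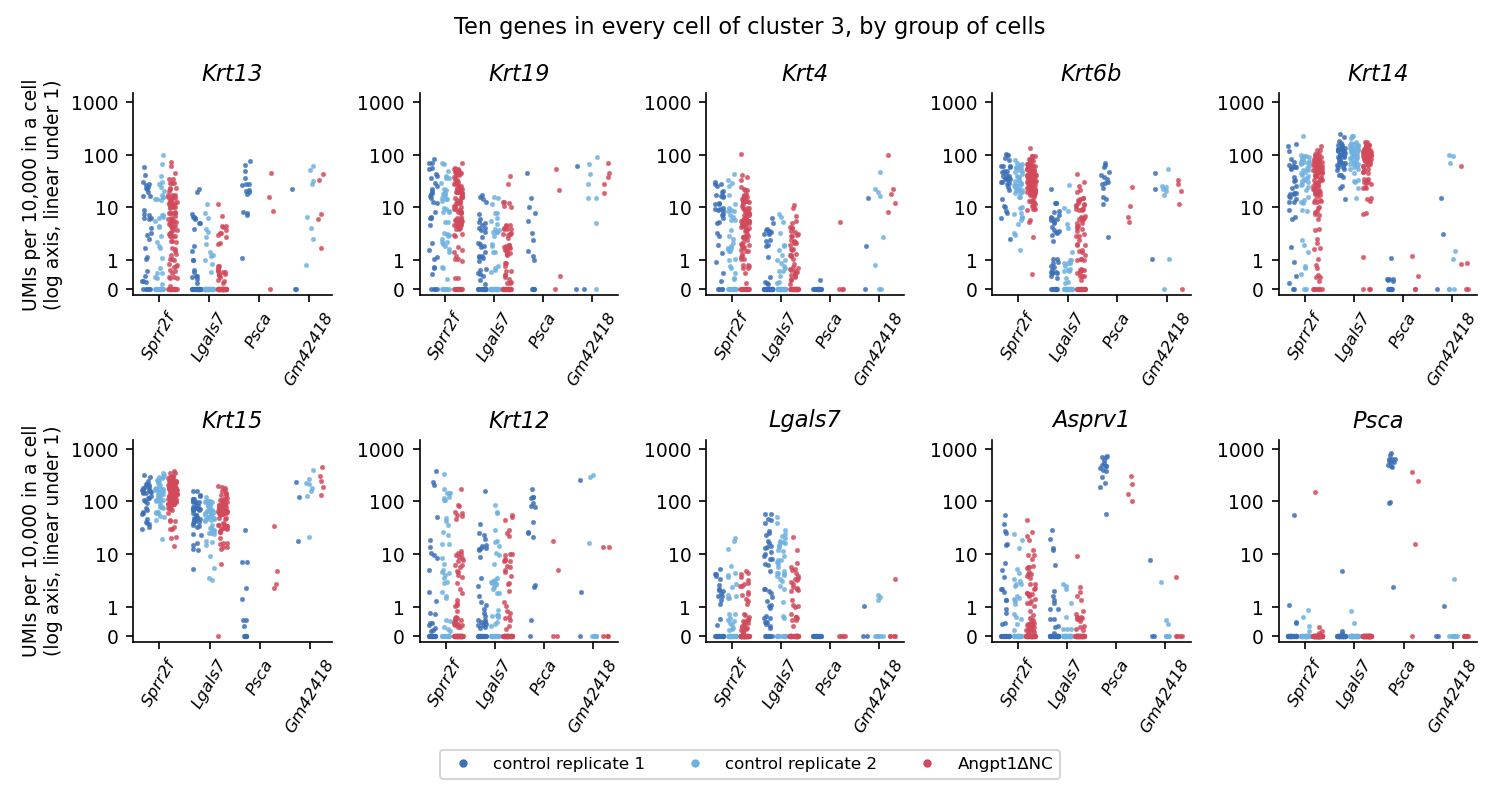
Each point is a cell of cluster 3, placed by its group and coloured by library, with its UMIs per 10000 of the named gene on an axis that is logarithmic above 1 and linear below it. *Krt14* and *Lgals7* stand highest in the *Lgals7* group, *Krt4* is higher in the *Sprr2f* than in the *Lgals7* group, *Psca* and *Asprv1* stand highest in the *Psca* group, and control replicate 2 has no cell there.

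The question of whether loss of *Angpt1* in the neural crest lineage went with a change of this neighbouring epithelium was first addressed by the share of cells. Cluster 3 made up 1.08% (98 of 9076, exact 95% interval 0.877 to 1.31) and 0.984% (100 of 10160, 0.802 to 1.20) of the kept cells in the controls and 2.84% (192 of 6772, 2.45 to 3.26) in *Angpt1*ΔNC, which is 2.75 times the control mean. Among the cells of clusters 2 to 5 alone, the shares were 8.57%, 8.67% and 16.4%, or 1.90 times the control mean. The limbal cluster 4 was also higher in *Angpt1*ΔNC, at 9.47% of kept cells against 4.56% and 4.99%, while the corneal cluster 5 was lower, at 3.99% against 6.34% and 4.97%. The controls differed from each other in the cluster 3 share by less than their counting intervals, and the *Angpt1*ΔNC share lay outside both. With 2 libraries against 1 the smallest p of an exact permutation test is 0.333, so no test between genotypes was made. How much limbus and conjunctiva each dissection retained cannot be told apart from the genotype.

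**Figure D3:**
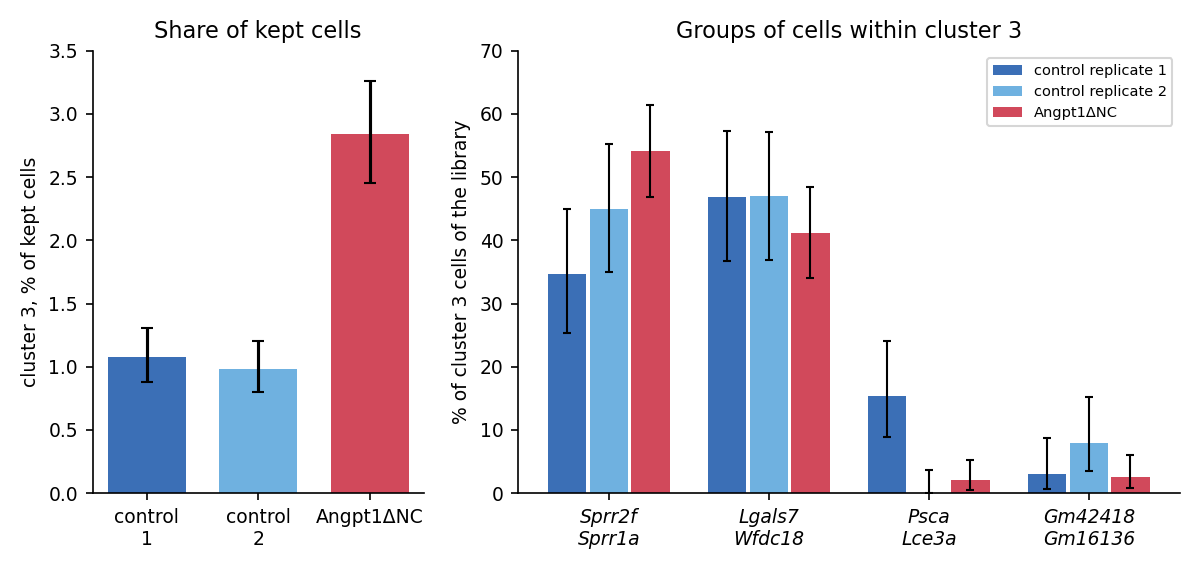
Share of cluster 3 among all kept cells (left, percent) and shares of the 4 groups within cluster 3 (right, percent), by library, with exact 95% binomial intervals for counting error as bars. Cluster 3 makes up 2.84% of kept cells in *Angpt1*ΔNC, above 1.08% and 0.984% in the controls, and its *Sprr2f* group makes up 54.2% of the cluster, above both controls.

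The makeup of the cluster differed less. The *Sprr2f* group took 34 of 98 (34.7%) and 45 of 100 cells of cluster 3 in the controls and 104 of 192 (54.2%, exact 95% interval 46.8 to 61.4) in *Angpt1*ΔNC. The interval of control replicate 2, 35.0 to 55.3, overlapped those of both other libraries. The *Lgals7* group took 46.9%, 47.0% and 41.1%, with intervals that overlapped in all libraries.

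Expression was then compared between genotypes on UMIs summed over the cluster 3 cells of each library, in which the share of cells with a transcript and the amount per cell cannot be told apart. *Krt12* and *Lgals7* were lower and *Cyp2f2* higher in *Angpt1*ΔNC by DESeq2 but did not pass edgeR, and *Krt13*, *Krt4* and *Krt19* passed neither. Several predicted genes were nearly lost from the *Angpt1*ΔNC library, in cluster 3 as in clusters 4 and 5. Of 8953 genes tested, edgeR called 0 at an adjusted p under 0.05 (0%), with 521 (5.82%) at an unadjusted p under 0.05, of which 261 (2.92%) were higher in *Angpt1*ΔNC and 260 (2.90%) lower. DESeq2 on the same sums called 25 (0.279%), 7 higher (0.0782%) and 18 lower (0.201%). The edgeR fit had 1 residual degree of freedom, and in both tools the spread of the knockout is taken from the controls alone. The median log2 difference over all genes tested was -0.04.

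*Krt12*, the keratin that defines the corneal epithelium, differed between genotypes more than the other epithelial keratins described here. It had 2828 and 2825 CPM in the controls and 514 in *Angpt1*ΔNC, a log2 difference of -2.46 (adjusted p = 0.307 by edgeR), while DESeq2 gave -2.44 ± 0.32 (SE, adjusted p = 2.79e-11). Both controls lay far above the knockout and close to each other. In clusters 4 and 5 summed, *Krt12* had 12240 and 9436 CPM in the controls and 6629 in *Angpt1*ΔNC, a smaller difference in the same direction. The interaction, which asks whether the log2 difference in cluster 3 equals that in clusters 4 and 5 of the same libraries, was -1.73 for *Krt12* (adjusted p = 0.142 by edgeR).

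The *Krt12* difference was visible in the cells. A UMI of *Krt12* was found in 66.3% and 66.0% of control cells and in 41.1% of *Angpt1*ΔNC cells, and after thinning to 5000 UMIs in 48.9%, 54.1% and 28.4%. Cells with at least 20 *Krt12* UMIs per 10000 numbered 20 of 98 (20.4%) and 20 of 100 in the controls and 14 of 192 (7.29%, exact 95% interval 4.04 to 11.9) in *Angpt1*ΔNC. Cells above the median of the corneal cluster 5 of their own library numbered 6, 11 and 1. Most cells with this much *Krt12* did not hold as much of the mucosal keratins in control replicate 2 and *Angpt1*ΔNC. Cells with at least 20 UMIs per 10000 of *Krt12* and also of *Krt13*, *Krt4* and *Krt19* together numbered 12, 3 and 3. Levels were lower in *Angpt1*ΔNC in the *Sprr2f* group, with 27.3 and 36.2 in the controls and 7.12, and in the *Lgals7* group, with 7.93, 7.35 and 4.11. The log2 difference of the summed counts was -2.57 in the *Sprr2f* group but only -0.61 in the *Lgals7* group. The stromal TM cells, which do not make *Krt12*, had a UMI of it in 11.6%, 8.27% and 8.07% at medians of 5913, 6377 and 7494 UMIs.

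The mucosal markers did not pass the test. *Krt13* had 923 and 815 CPM in the controls and 628 in *Angpt1*ΔNC (log2 difference -0.47, adjusted p = 0.808 by edgeR). *Krt19* had 987, 870 and 1100 (0.25, 0.849) and *Krt4* had 329, 455 and 564 (0.53, 0.808), both with the knockout above the controls. *Asprv1* had 9270, 97.3 and 448 (-3.39, 0.823), with the knockout between the controls. *Krt75*, a companion layer keratin of the hair follicle, had 51.1, 105 and 165 (1.09, 0.808). *Hopx* had 576, 601 and 432, *Krt6b* 2149, 1952 and 2518, and *Sprr1a* 1292, 1584 and 1546, so the knockout stood outside both controls for the former pair and between them for the last.

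**Figure D4:**
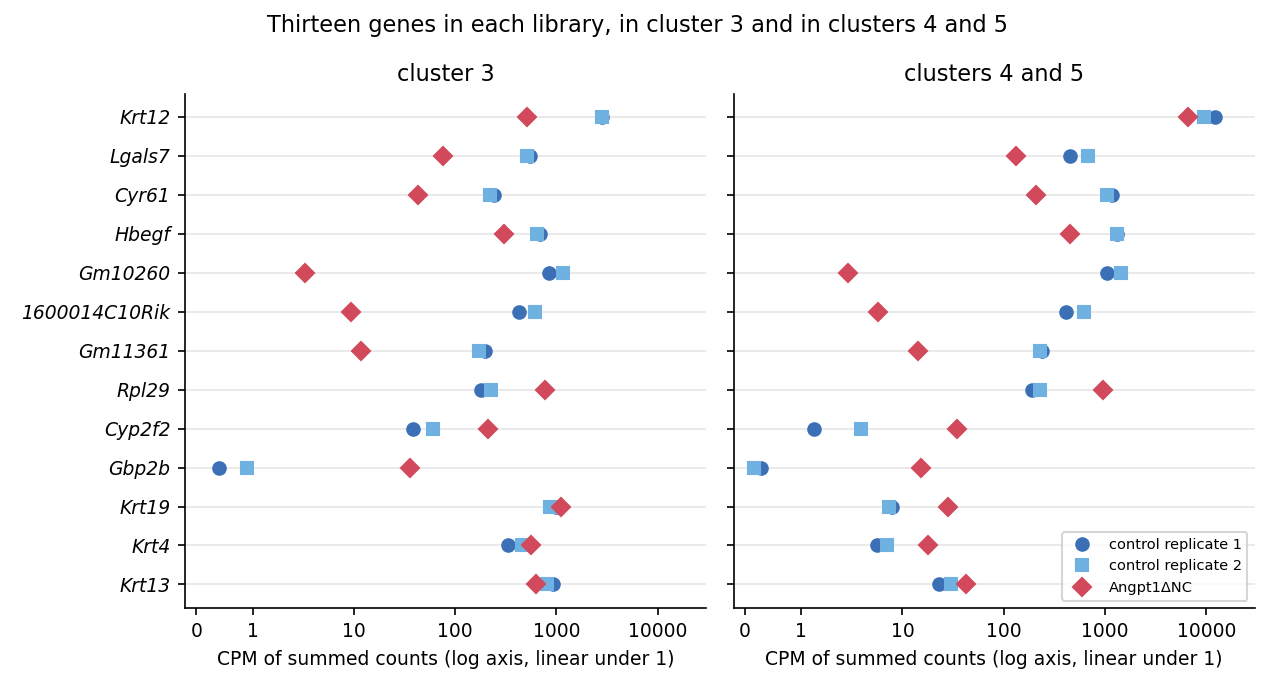
UMIs summed over cluster 3 (left) and over clusters 4 and 5 (right), in CPM on an axis that is logarithmic above 1 and linear below it, for 13 genes described in the text, with 1 point per library. In cluster 3 *Krt12* lies at 2828 and 2825 CPM in the controls and at 514 in *Angpt1*ΔNC, and *Lgals7* at 554 and 513 against 76.1.

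*Lgals7* had 554 and 513 CPM in the controls and 76.1 in *Angpt1*ΔNC, a log2 difference of -2.81 (adjusted p = 0.140 by edgeR, 2.80e-12 by DESeq2). It was read in 56.1% of cluster 3 cells in control replicate 1, in 60 of 100 cells in control replicate 2 and in 33.3% in *Angpt1*ΔNC. In clusters 4 and 5 it had 452, 677 and 132 CPM, and its interaction of -0.71 did not pass (adjusted p = 0.973 by edgeR). *Cyp2f2*, a cytochrome P450 of airway and olfactory epithelium, was higher in *Angpt1*ΔNC at 213 CPM against 38.0 and 60.2 (log2 difference 2.11, adjusted p = 0.437 by edgeR and 0.0105 by DESeq2). It was read in 22.4%, 32.0% and 76.6% of the cells, and in clusters 4 and 5 it had 1.34, 3.92 and 34.3 CPM. In the stromal TM cells *Cyp2f2* was read in 8.70%, 11.3% and 32.5%, so its higher share in *Angpt1*ΔNC was not confined to the surface epithelium. *Cyr61*, a matricellular target of YAP, had 243, 220 and 42.7 CPM (-2.43, DESeq2 adjusted p = 4.31e-07), and 1169, 1045 and 209 in clusters 4 and 5. *Hbegf*, an EGF receptor ligand, had 689, 637 and 301 CPM (-1.14, adjusted p = 0.588 by edgeR and 0.216 by DESeq2).

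Most DESeq2 calls had the same direction in the neighbouring epithelium. Of the 25, 24 had their *Angpt1*ΔNC value past both controls in the same direction in clusters 4 and 5, the exception being *Muc5b*. Of the 6080 genes tested that lay outside both controls in cluster 3, 4009 (65.9%) did so. Among the 24, *Scgb2b2* and *Gp2* came from 1 cell of cluster 3, and *Scgb2b2* had at most 0.548 CPM in clusters 4 and 5. The 3 with the smallest adjusted p by DESeq2, though not all with the largest differences, were 2 predicted genes and the RIKEN-named *1600014C10Rik*. The predicted genes were *Gm10260*, with 853 and 1157 CPM in the controls and 3.32 in *Angpt1*ΔNC, and *Gm11361*, with 197, 173 and 11.8. *1600014C10Rik* had 430, 607 and 9.39. *Gm10260* had 1049, 1419 and 2.92 CPM in clusters 4 and 5, the same contrast as in cluster 3. *Rpl29*, a ribosomal protein gene, went the other way with 178, 224 and 779 CPM (log2 difference 1.95, DESeq2 adjusted p = 1.62e-04). Ribosomal protein genes have many near-identical copies between which the counting can split reads, so their values are uncertain.

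Other named calls included the interferon-inducible *Gbp2b*, with 0.409, 0.906 and 35.7 CPM, and *Ifi207*, with 32.7, 35.3 and 1.47. *Adm*, adrenomedullin, had 323, 477 and 121 CPM, *Apoc1*, an apolipoprotein, had 138, 191 and 45.3, and *Mgarp*, a mitochondrial protein gene, had 196, 367 and 49.7. *Hist1h1e*, a linker histone gene, had 47.8, 41.2 and 6.26. *Xist*, called higher, went with the *Xist*-positive cells described above. In 5 of the 25, *S100a8*, *Lce3f*, *Scgb2b2*, *Gp2* and *Muc5b*, a single cell held over 50% of the UMIs in the library where the gene was higher. *Gbp2b* was so scarce in the controls that 1 cell held 100% of its UMIs in control replicate 1. The genes named in this comparison were chosen after their values were seen, since none met the planned rule.

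**Figure D5:**
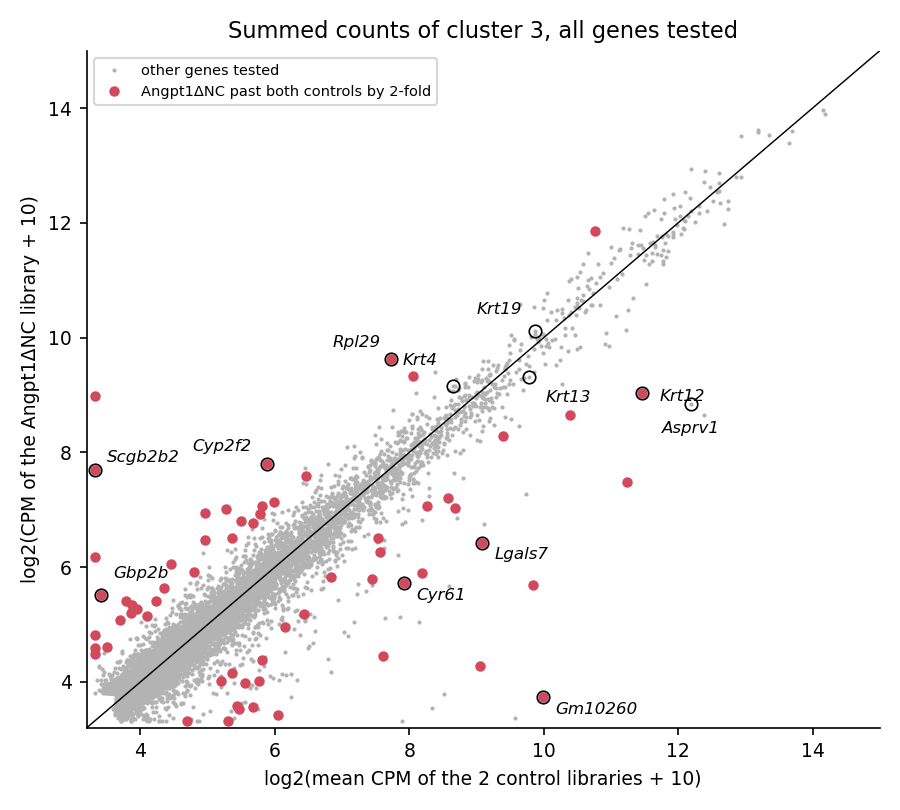
Mean of the controls (horizontal) against *Angpt1*ΔNC (vertical) for the UMIs summed over cluster 3, each as log2 of CPM with 10 added, with 1 point per gene tested and genes past both controls by 2-fold in red. *Krt13*, *Krt4* and *Krt19* lie near the diagonal, and *Krt12*, *Lgals7* and *Gm10260* lie below it.

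A rule of size gave a similar picture. With 10 CPM added, 32 genes (0.357%) were at least 2-fold above both controls in *Angpt1*ΔNC and 31 (0.346%) at least 2-fold below both, whereas the controls differed from each other by 2-fold in 273 genes (3.05%). Of these genes 5 above (0.0558%) and 1 below (0.0112%) had over 50% of their UMIs in 1 cell. Each share of the knockout was thus smaller than that of the controls against each other, a comparison that asks less since it involves no second control.

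Read by function, the epithelial lists are short, and over all genes tested 0.357% were 2-fold above both controls and 0.346% below. At these shares most lists of this length would hold none, so holding none does not set them apart. None of the 3 basal keratins, the 7 tested keratins of stratified mucosa and stress, the 16 tight junction genes or the 14 desmosome genes was 2-fold outside both controls, and their median log2 differences were -0.01, 0.30, 0.12 and -0.23, beside -0.04 over all genes. The 24 tested transcription factors of the surface epithelium had a median of 0.01 and none outside.

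Corneal markers had a median of -1.37 over 4 genes, with *Krt12* 2-fold below both controls, but they did not move together. *Slurp1* had -6.52, set by control replicate 1, *Aldh3a1* had -0.29 with 769, 974 and 713 CPM, and *Aldh1a1*, an aldehyde dehydrogenase, had 1.43 with 9.81, 6.34 and 21.9 CPM (unadjusted p = 0.0117 by edgeR, adjusted p = 0.672). Of 8 chemokine genes tested, 4 were lower at an unadjusted p under 0.05 and none higher, with a median of -0.71, against 2.90% lower over all genes. The 4 were *Cxcl1*, *Cxcl2*, *Cxcl5* and *Ccl20*. For *Cxcl5* 1 cell held 36.8%, 72.7% and 26.6% of its UMIs in control replicate 1, control replicate 2 and *Angpt1*ΔNC. *Ccl20*, a ligand of CCR6, had 46.6, 11.8 and 4.05 CPM, and 1 cell held 56.1%, 65.4% and 86.4% of its UMIs. *Cxcl1*, a neutrophil chemokine, had 28.6, 24.0 and 9.76 CPM, with the knockout below both controls. The 15 immediate early genes had a median of -0.50, and the 14 heat shock genes had -0.17. At an unadjusted p under 0.05 by edgeR, 1 immediate early gene was higher and 1 lower, against 2.92% and 2.90% over all genes. Of 14 interferon-stimulated genes 10 had a lower value in *Angpt1*ΔNC and 4 a higher one, with a median of -0.20. Over all 8953 genes tested, 4827 had a lower value and 4126 a higher one. Among the 14, 1 was 2-fold above both controls (0.357% of all genes), *Ifit3*, with 4.90, 2.72 and 32.6 CPM. Of 9 genes of the angiopoietin and TIE pathway none had enough UMIs to be tested.

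Among the defence and metabolic lists the medians lay between -0.64 and 0.23. The 15 antimicrobial and alarmin genes tested had -0.64, with *S100a8*, a calprotectin subunit, below at 44.1, 14.5 and 0 CPM. The 18 genes of glutathione and xenobiotic metabolism had -0.05, with *Cyp2f2* above and *Gpx2*, a glutathione peroxidase of epithelia, below at 31.1, 31.2 and 7.74 CPM. The 11 genes of retinoid and aldehyde metabolism had 0.23, with 3 higher and 1 lower at an unadjusted p under 0.05, against 2.92% and 2.90% over all genes. The 16 of cholesterol and fatty acid synthesis had -0.20, with 1 higher and 0 lower. Neither list had a gene 2-fold outside both controls. At 0.357% above and 0.346% below over all genes, most lists of this length would hold none. Of the 9 EGF receptor ligands and receptors *Hbegf* was below, while *Ereg*, epiregulin, had 83.8, 67.5 and 167 CPM (adjusted p = 0.585 by edgeR).

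The level of *Aqp5*, a water channel of the corneal and glandular epithelium, was highest in the *Psca* group of control replicate 1, at 56.7. Over cluster 3 it had 1416, 395 and 41.4 CPM, so all 3 libraries lay far apart. *Slurp1*, a secreted Ly6 protein of the cornea, had 710, 4.08 and 3.87 CPM, so that control replicate 1 stood apart and control replicate 2 was close to *Angpt1*ΔNC. Neither passed DESeq2, with adjusted p of 0.309 for *Aqp5* and 1.000 for *Slurp1*.

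The count of calls moved with the cells included. Without the 19 cells of the *Psca* group and without 1 *Angpt1*ΔNC cell of secretory type genes, an alternative chosen after seeing the data, edgeR called 487 of 8546 genes (5.70%), 263 higher (3.08%) and 224 lower (2.62%), but its estimate then gave every gene the same spread, which the 1 residual degree of freedom cannot check. In that fit 21 of the 25 DESeq2 calls passed, *Krt12* had a log2 difference of -2.13 (adjusted p = 2.92e-14 by edgeR) and *Krt13* one of 0.05 (0.954). With 34 cells of each of both large groups per library and none of the smaller groups, edgeR called 12 (0.151%), 4 higher (0.0502%) and 8 lower, and in male-typed cells alone it called 5 genes.

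No gene differed between cluster 3 and clusters 4 and 5 in its response at an adjusted p under 0.05 by edgeR, among 12343 tested (0%). At an unadjusted p under 0.05 there were 529 (4.29%), 256 higher (2.07%) and 273 lower (2.21%), and DESeq2 called 7 (0.0567%), 1 higher (0.00810%) and 6 lower (0.0486%). The smallest adjusted p by edgeR was 0.0529, for *Serpinb3a*, *Ccl20* and *Cxcl5*, all with a lower difference in cluster 3. The share of UMIs from a single cell given above for *Ccl20* and *Cxcl5* limits these values too. *Serpinb3a*, a serine protease inhibitor of squamous epithelium, had 197, 516 and 273 CPM in cluster 3 against 0.624, 1.99 and 11.8 in clusters 4 and 5 (interaction -3.56), so its contrast lay in the latter. *BC100530*, a stefin A gene of a near-identical family, had an interaction of -1.15. In the other direction *St3gal4*, a sialyltransferase, had 4.50, 6.34 and 28.4 CPM in cluster 3 against 9.07, 11.3 and 6.76 (3.01, adjusted p = 0.239 by edgeR), and *Ptgs2*, the inducible cyclooxygenase, had 128, 86.0 and 99.5 against 230, 159 and 63.2 (1.55). *Scgb2b2*, *Klk7* and *Lce3c* completed the 5 with the smallest p in that direction, each at or below 9.39 CPM in cluster 3 apart from *Scgb2b2*, which had 197 CPM from 1 cell of *Angpt1*ΔNC. For *Krt19* the interaction was -1.60 (adjusted p = 0.142 by edgeR), with 7.96, 7.32 and 28.1 CPM in clusters 4 and 5.

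Stromal transcripts were read in many cells and were high in few. *Dcn* had a UMI in 41.0% of the *Sprr2f* group, with levels there of 0.116 and 0.182 in the controls and 4.42 in *Angpt1*ΔNC. At a finer resolution the group with *Dcn* as its leading gene was picked out, so its stromal levels describe that choice and are no separate support. It held 17 cells, of which 8 came from control replicate 1, 9 from *Angpt1*ΔNC and 0 from control replicate 2. Their median was 4527 UMIs, with 7.69% mitochondrial UMIs. *Dcn* had a level of 0.247 in the former 8 and 48.7 in the latter 9, *Sparc* 0.328 and 26.1, and *Col1a1* 0.0992 and 14.9. The same cells held *Krt4* at 18.9 and 14.3 and *Krt13* at 19.8 and 5.87, so that keratins and stromal matrix genes were read together in the *Angpt1*ΔNC cells. Leaving out the cells that held UMIs of more than a single immune or stromal marker gene removed 29, 29 and 65 cells. Cells with only a single such gene stayed in. After that, edgeR called 0 genes, with 304 at an unadjusted p under 0.05. Since edgeR also called 0 with all cells included, this count cannot show what part the stromal transcripts had in the differences between genotypes.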

How the data were processed

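Droplet libraries of 2 control pools and 1 *Angpt1*ΔNC pool were sequenced. The authors made raw UMI counts per gene and cell with Cell Ranger on mm10 (version 2.1.1 and Seurat 3.1.3 per the submitters' processing notes), kept cells with at least 200 genes, at least 1000 UMIs and at most 10% mitochondrial UMIs, removed doublets and labelled clusters. The gene columns of the deposited cell tables hold integrated natural log values and were not used. The gene lists and comparisons here were chosen with earlier results of these data known. A level is the average, over cells, of UMIs per 10000, and intervals are exact (scipy 1.17.1). Groups within cluster 3 came from scanpy 1.11.5 (2000 variable genes, 15 components, 15 neighbours, Leiden resolution 0.3) without further doublet removal. Counts were summed per library and tested with edgeR 4.0.16 (quasi-likelihood F-test, TMM factors, filterByExpr, Benjamini-Hochberg over all genes tested), with DESeq2 1.42.0 as an alternative. The edgeR tests, but not DESeq2, were tried on simulated sums with changed genes. In cluster 3 they called 59% of changes of log2 size 2 and 98% of size 3. For the interaction they called 11% and 49%. The simulation gave every gene the same spread and changed only genes with many UMIs, whereas the spread in the data differed between genes. These shares therefore do not carry over to the measured genes. *Gm10260*, with a log2 difference of -8.23 in cluster 3, did not pass edgeR. Genes were to be named by edgeR where adjusted p was under 0.05 with a 2-fold change outside both controls, for the interaction as the 5 higher and 5 lower with the smallest p, for the cluster as the 20 of largest fold over clusters 2, 4 and 5 found in at least 25% of cells. P-values rest on the spread between the 2 control pools and on spread borrowed across genes. The spread between *Angpt1*ΔNC pools was not measured, since there was 1.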

Additional observations from a re-analysis of the deposited data

How the results depend on the processing

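The count of genes that edgeR called different between genotypes in cluster 3 was 0. It was also 0 with RLE factors, in cells with a UMI of *Krt13* or *Krt4* and without cells of more than a single immune or stromal marker. It was 2 with equal numbers of cells, 3 in cells of at least 2000 UMIs, 5 in male-typed cells, 12 with equal numbers of cells of both large groups, 399 with no filter on low counts and 25 by DESeq2. Among alternatives chosen after seeing the data it was 275 in the *Sprr2f* group, 295 in the *Lgals7* group and 487 without the *Psca* group and the *Scgb2b2* cell, fits in which all genes shared the same spread. With no filter *Gm10260* likewise had a p-value that 1 residual degree of freedom allows only with nearly the same spread for all genes. The interaction count of 0 was 28 with no filter, 3 in cells of at least 2000 UMIs, 6 with cluster 2 added to the comparison and 7 by DESeq2. Signs turned for *Krt19* (log2 difference -0.07) and *Krt4* (-0.04) with equal weights, for *Krt19* (-0.07) and *Muc4* (0.31) in the *Sprr2f* group, for *Krt19* (-0.14) and *Muc4* (2.93) in the *Lgals7* group, for *Krt13* (0.05) and *Muc4* (0.81) without the *Psca* group, for *Asprv1* (2.20, and -4.35 without control replicate 2) and *Muc4* (1.37, and -1.17) without control replicate 1, and for the *Cxcl5* interaction (2.71) against cluster 5 alone. The cause was not tested. The ratio of the cluster 3 share was 2.75, 1.90 within clusters 2 to 5, 3.00 for cells with *Krt13* or *Krt4*, and 2.63 to 2.88 when a control was left out. Other clusterings kept the 19 cells of the *Psca* group together, and the *Sprr2f* group's ratio of 1.36 became 1.22 to 1.32. At resolution 0.8 only 67 of its 183 cells stayed together, with 19.3% in *Angpt1*ΔNC below 20% in control replicate 2. With 98 to 192 cells per library, shares near 3% are at the limit of detection. No paired analysis was possible because the labels do not tie a control pool to the *Angpt1*ΔNC pool.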

Other observations

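A cell of the *Angpt1*ΔNC library, placed in the *Lgals7* group of cluster 3, carried a secretory set of transcripts. Of its 18583 UMIs, 1068 were of *Scgb2b2*, a secretoglobin, 339 of *Gp2*, a zymogen granule membrane glycoprotein, 295 of *Wfdc2*, 268 of *Esp6*, an exocrine gland-secreted peptide, and 97 of *Muc5b*, a gel-forming mucin. It also held 99 UMIs of *Krt18*, 51 of *Krt19* and 34 of *Xist*, and 0 of *Krt13*, *Krt4*, *Tff1* and *Tff3*. Of all other kept cells, 17 had a UMI of *Scgb2b2* and 0 had more than 10.

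Across the 35 cluster labels, the genes whose control means ranked most like those of *Krt13* were *Sfrp1*, a secreted Wnt antagonist (Spearman rho 0.717), *F2rl1*, the protease-activated receptor 2 (0.692), *Ppp1r14c* (0.672) and *Gsta4*, a glutathione transferase (0.670), followed by *Nipal2*, *Ptpn13*, *Epn3*, *Itpr3*, *Ezr* and *Rab27b* (0.638). The labels share their libraries and 7798 genes were ranked, so these values are descriptive.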
